A study of Danio rerio with 6 samples.

Results

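The activity-dependent immediate early genes of zebrafish larvae were examined by RNA-seq in dscaml1 mutants and their wild-type siblings. The set held 32 gene symbols of the FOS, JUN, EGR, NPAS4, ARC, NR4A, KLF, IER and DUSP families, with atf3 and btg2, and a gene was taken as a member where its symbol in the table of all genes was identical to a listed one. Of these symbols 30 were matched, out of 31901 genes in the table, and all 30 passed the filter on low values (a mean of at least 5 normalized counts, passed by 21302 genes). The symbols arca and npas4b were not analysed here.

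Immediate early genes are transcribed within minutes of a stimulus, without new protein synthesis, from promoters that already hold factors such as SRF and CREB, which calcium entry and the MAP kinase cascade switch on. Most encode transcription factors that turn on a later wave of genes, among them growth factors and synaptic proteins, while others encode phosphatases that shut the MAP kinases off again. In the brain they are used as markers of recently active neurons, but skin, muscle, endothelium and blood cells express many of them too, after wounding, stretch, flow or handling. The protein made from dscaml1 is a DSCAM-type adhesion molecule of the nervous system.

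The libraries came from 3 wild-type pools and 3 dscaml1-/- pools, the 2 genotypes being siblings from heterozygous parents. Each pool held 6 to 11 larvae of 3.5 to 4 dpf, before sexual differentiation, which had been raised at 28.5 °C with 14 h of light and 10 h of dark and had received no treatment. All larvae were anesthetized before harvest, in both genotypes. The mutant allele, vt1, lacks a few bases of dscaml1 and so puts its reading frame out of register in every cell, and no transgene or drug separates the groups. The methods describe RNA from the anterior part of the animal and the sample labels describe the whole animal, which the sources used here do not settle. No clutch, collection day or hour of harvest is named, so a p-value here measures only pool-to-pool spread.

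Recovered reads ranged from 21863982 to 23516860 in the wild-type libraries and from 18725190 to 20476688 in the mutant libraries. A principal component analysis took the genes that passed the filter on low values. Replicate 2 of both genotypes lay far from the remaining libraries along its leading axis (70.9% of the variance). The main fit of every gene carried a term for replicate 2, taken over from an earlier analysis of these data. The dscaml1 transcript ran from 333 to 395 normalized counts in wild type and from 336 to 400 in mutants, so its level does not check the genotype labels, and no member lay on its chromosome, 15. Neuronal markers were present in every library, with a summed level of 18944 to 24014 normalized counts in wild type and 21754 to 24661 in mutants, and 1 of the 14 markers, stmn1b, was at 0 throughout. Skeletal muscle, epidermal and liver markers were also high in all libraries, so each value is a sum over many tissues. Markers of some tissues differed with genotype. Over all genes tested, 7.9% were lower in mutants at an unadjusted p under 0.05 from limma and 0.0751% at an adjusted one, and DESeq2 called 2.18% lower. All 7 liver markers were lower in mutants at an unadjusted p under 0.05, 4 of them at an adjusted p under 0.05 from limma and 6 from DESeq2, with a summed level of 36711 to 51352 in wild type and 15113 to 27644 in mutants. Of 9 skeletal muscle genes 3 were lower at an unadjusted p under 0.05, 0 at an adjusted one from limma and 2 from DESeq2. At an unadjusted p under 0.05 from limma 0 of the 9 were higher, and their median log2 fold change was −0.14. The summed level was 292059, 161025 and 296932 in wild type and 347820, 109178 and 351371 in mutants (replicates 1, 2 and 3). It was thus higher in mutants in replicates 1 and 3 and lower in replicate 2. The part of these shifts in the genotype values of the early genes was not tested. In such bulk RNA, fewer cells that express a gene and less RNA per cell cannot be told apart.

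The first comparison asked whether larvae without dscaml1 carry another level of these genes than their siblings. None of the 30 members was called at an adjusted p under 0.05 from limma, in either direction, where 0.0235% of all genes tested were called higher and 0.0751% lower in mutants. At an unadjusted p under 0.05 from limma, 2 members, egr4 and npas4a, were higher and 0 were lower, a share of 6.67% beside 6.1% of all genes for higher and 7.9% for lower. edgeR on the recovered reads called 0 members, and DESeq2 called 1, egr4, higher (3.33% beside 1.03% of the genes with a defined adjusted p) and 0 lower (beside 2.18%). No member had all 3 mutant libraries above all 3 wild-type libraries, as 5.07% of genes did, and 1 member, egr2b, had them all below, as 4.55% did. The fitted log2 fold changes (mutant minus wild type, on log2 of the normalized count plus 1) were above 0 for 25 of 30 members, with a median of 0.179, where 50.7% of all genes were above 0 with a median of 0.005. Genes of the set share libraries and vary together among them, so these counts describe the 6 libraries.

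**Figure D1:**
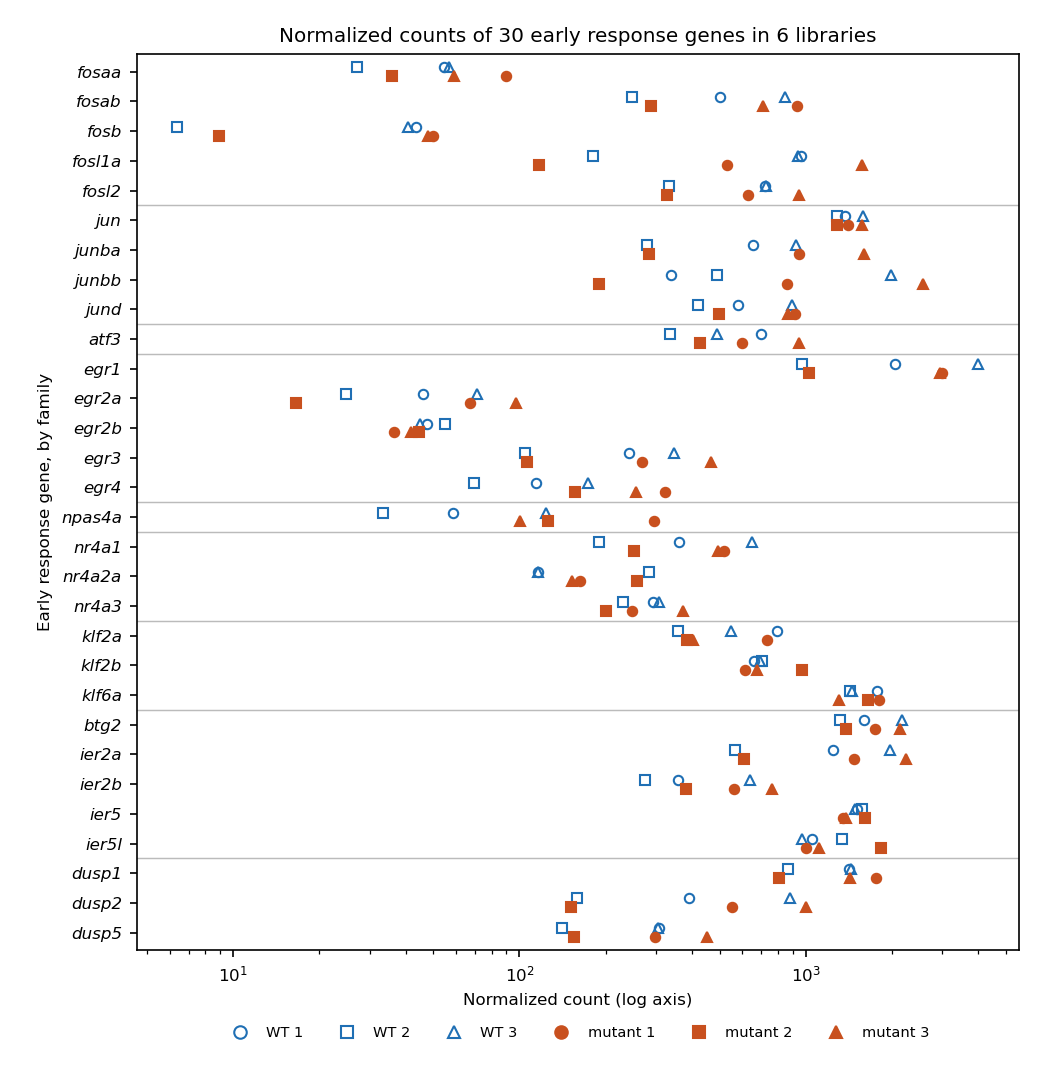
Normalized count of each of the 30 early response genes (rows, by family) in 6 libraries, on a log axis. Open blue symbols are the 3 wild-type pools, filled orange symbols the 3 mutant pools, and circles, squares and triangles are replicates 1, 2 and 3. The squares lie at the low end of most rows, at both genotypes, and in no row do all orange symbols lie above all blue ones.

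**Figure D2:**
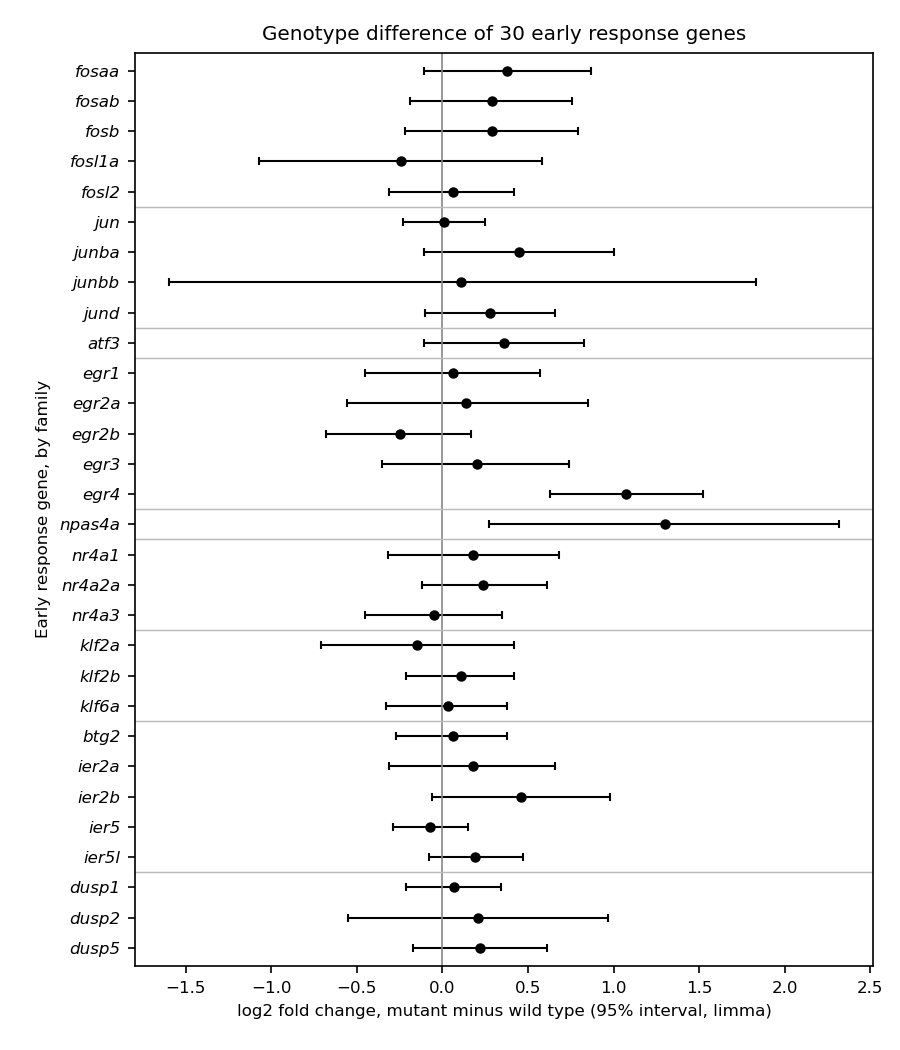
Genotype log2 fold change (mutant minus wild type) of each member from limma, with its 95% interval, by family. The intervals of egr4 and npas4a lie above 0 and those of the other 28 members span it, the widest being that of junbb.

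Of the EGR family, zinc finger factors that bind GC-rich promoter sites, egr4 had the lowest p of the set. egr4 (ENSDARG00000077799, chromosome 23 of GRCz11 from 45579497 to 45581626) had 113.9, 69.18 and 173.8 normalized counts in the wild-type pools (replicates 1, 2 and 3, in that order throughout), and 323.6, 156.4 and 255.4 in the mutant pools. Each mutant library was above the wild-type library of the same number, by log2 differences of 1.5, 1.17 and 0.55, but the ranges of the genotypes overlapped, since mutant replicate 2 was below wild-type replicate 3. The means were 119 ± 52.5 and 245.1 ± 84.1 (SD, n = 3 pools each). The fitted log2 fold change was 1.07, with a standard error of 0.19 and a 95% interval from 0.63 to 1.52. The adjusted p was 0.119 from limma, 0.12 from edgeR and 0.000766 from DESeq2. Leaving out wild-type replicate 2, mutant replicate 2 or both compares the genotypes in the same 4 libraries. A single replicate 2 library is taken up by the replicate 2 term. These fits all gave egr4 a log2 fold change of 1.0, with adjusted p from DESeq2 of 0.0645, 0.0661 and 0.0449. They fall on either side of 0.05 at an equal estimate. DESeq2 still called egr4 without any one of the other 4 libraries (0.91 to 1.26, 0.000964 to 0.0459). Without the replicate 2 term it did not (1.03, 0.999). In that fit it called 0 members and, of the 3 pathway lists below, 0 genes. The values rested on 120 to 498 reads per library. The gene lies within the coordinates of cyp17a2, a steroid hydroxylase gene, which had 2.37 to 15.3 normalized counts per library. Gene strands and the strand setting of the counting were not in the sources, so shared reads could not be checked.

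egr1, long used as a marker of activity in the brain, had 2053, 969.7 and 4012 normalized counts in wild type and 3003, 1027 and 2946 in mutants. The highest library was wild-type replicate 3, and the genotypes overlapped widely. Its log2 fold change was 0.06 with a 95% interval from −0.45 to 0.57 (adjusted p = 0.928 from limma). egr2b, which patterns the segments of the zebrafish hindbrain, had 47.64, 54.77 and 44.93 normalized counts in wild type and 36.39, 44.7 and 41.95 in mutants, the member with all mutant libraries below. That separation was narrow, and the difference of −0.25 on the log2 scale did not pass (adjusted p = 0.58 from limma, standard error 0.18). egr2a and egr3 had log2 fold changes of 0.14 and 0.20, with 95% intervals from −0.56 to 0.85 and from −0.35 to 0.74. Within the family the 5 fold changes thus ran from −0.25 to 1.07, with a median of 0.14.

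npas4a encodes a bHLH-PAS factor whose mouse counterpart is induced almost exclusively in neurons, by calcium entry. npas4a (ENSDARG00000055752, chromosome 14 of GRCz11 from 30636955 to 30642819) had 58.68, 33.44 and 123.6 normalized counts in wild type, and 294.4, 125.8 and 100.1 in mutants. Replicates 1 and 2 were higher in mutants by log2 values of 2.31 and 1.88, and replicate 3 was lower by a log2 difference of −0.30. The means were 71.89 ± 46.5 and 173.4 ± 106 (SD, n = 3 pools each). The fitted log2 fold change was 1.30, the largest of the set (standard error 0.44, 95% interval from 0.27 to 2.32). It did not pass with limma (adjusted p = 0.268), edgeR (0.254) or DESeq2 (0.0521). Nor did it pass in DESeq2 with the replicate block (0.533), with no replicate 2 term (0.999) or without both replicate 2 libraries (0.387). Under DESeq2, npas4a passed once mutant replicate 3 was left out (5.66e-05) or wild-type replicate 3 was left out (0.013), and its adjusted p ran from 0.295 to 0.925 without any one of the other 4 libraries.

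**Figure D3:**
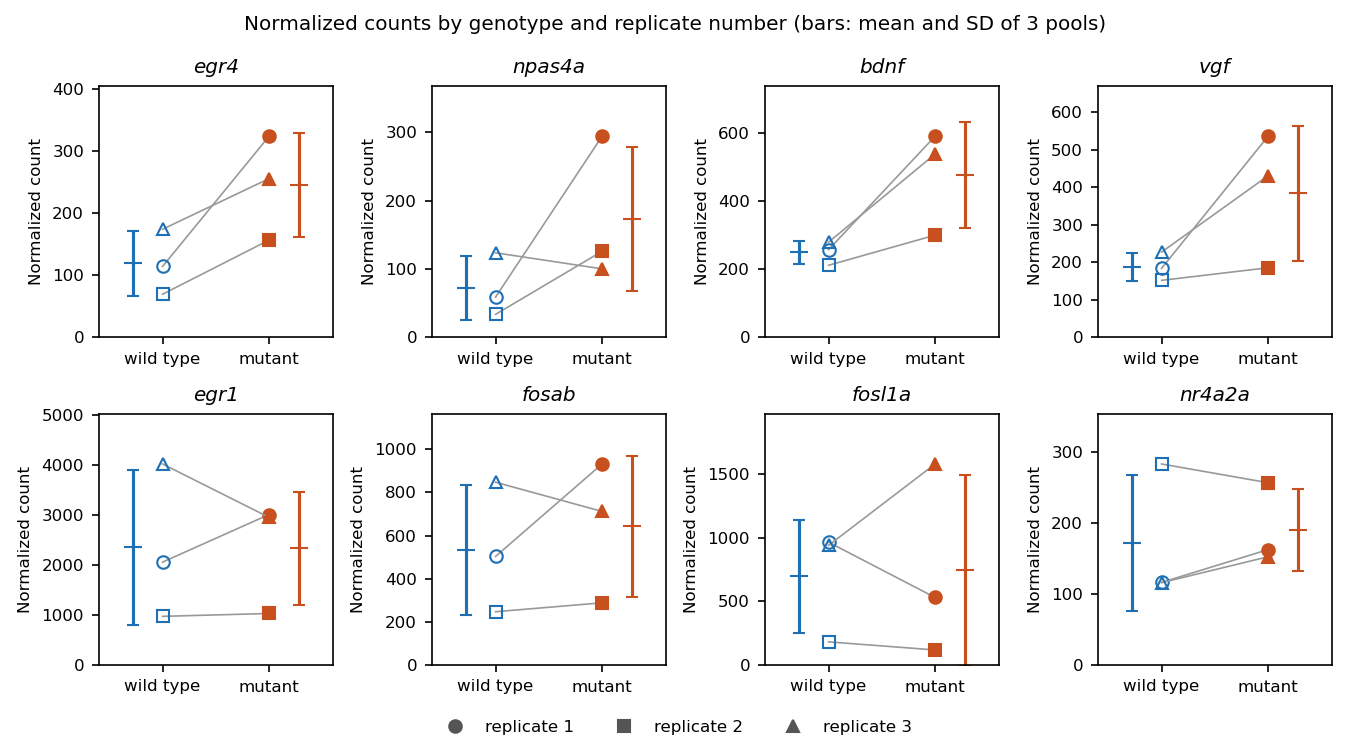
Normalized counts of 8 genes in wild-type (open blue) and mutant (filled orange) pools, with a grey line between libraries of the same replicate number, and bars for the mean and SD of 3 pools (the lower bar of fosl1a in mutants is cut off at 0). The lines of egr4, bdnf and vgf all slope up, those of egr1, fosab and fosl1a go both ways, and replicate 2 is low in every panel but that of npas4a in mutants and that of nr4a2a.

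The FOS and JUN proteins pair to form the AP-1 transcription factor. The neuronal activity marker fosab, a counterpart of mammalian FOS, had 503.1, 246.7 and 847.2 normalized counts in wild type and 931.8, 288 and 711.7 in mutants. Libraries of both genotypes were interleaved, with a log2 fold change of 0.29 and a 95% interval from −0.19 to 0.76 (adjusted p = 0.574 from limma). It overlaps the annotated gene si:ch211-153j24.3, which had 9.58 to 30.5 normalized counts per library, highest in mutant replicate 1 as fosab was. It also overlaps an antisense gene at 0 in every library. Reads that fosab may share with these genes could not be checked either.

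Its paralog fosaa had 54.61, 27.1 and 56.75 normalized counts in wild type and 89.67, 35.76 and 58.88 in mutants. It was higher in the mutant library of each pair, and the log2 difference of 0.38 ± 0.21 (standard error) did not pass (limma, adjusted p = 0.471). fosb, a FOS family member known for lasting isoforms after repeated stimulation in mouse, had 43.57, 6.342 and 40.79 normalized counts in wild type and 50.04, 8.94 and 47.84 in mutants. Its 3 mutant libraries were each above the wild-type library of the same number by 0.20 to 0.44 on the log2 scale, but the spread among replicates was far larger, and the log2 fold change of 0.29 had an adjusted p of 0.602 from limma. Replicate 2 of fosb rested on as few as 11 reads. fosl1a and fosl2, AP-1 subunits active in skin and other epithelia, had log2 fold changes of −0.24 and 0.06, with 95% intervals from −1.07 to 0.58 and from −0.31 to 0.42. fosl1a ranged 13.4-fold among the mutant libraries, from 117.5 to 1578 normalized counts.

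junba, a JUN family member, had 654.8, 279 and 922.3 normalized counts in wild type and 946.1, 282.9 and 1598 in mutants. The pair of replicate 2 differed by a log2 value of only 0.02 while the others differed by 0.53 and 0.79, and the fold change of 0.45 (95% interval −0.11 to 1.0, adjusted p = 0.451 from limma) did not pass. jund, the JUN paralog known for a steady presence in resting cells, had 581, 422 and 896.2 normalized counts in wild type and 918.8, 498.7 and 866.3 in mutants. Pairs 1 and 2 were higher in the mutants and pair 3 was level at −0.05, and the log2 fold change of 0.28 had an adjusted p of 0.487 from limma. jun itself varied little, between 1282 and 1586 normalized counts, and its log2 fold change of 0.01 had a 95% interval from −0.23 to 0.25. In contrast junbb ran from 189 to 2563 normalized counts, the widest range of the set (13.6-fold), and its 95% interval from −1.6 to 1.83 took in changes of over 2-fold in either direction.

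atf3, a stress-induced factor that pairs with JUN proteins, had 698.9, 335.5 and 488.9 normalized counts in wild type and 597.8, 428.5 and 945.8 in mutants. Only mutant replicate 3 exceeded the wild-type range, and the log2 difference of 0.36 ± 0.20 (standard error) did not pass (limma, adjusted p = 0.475).

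Among the NR4A orphan nuclear receptors, nr4a2a, which acts in the development of dopaminergic neurons, had 116.2, 283.1 and 115.9 normalized counts in wild type and 162.5, 256.7 and 152.4 in mutants. Replicate 2 was its highest library in both genotypes, and replicates 1 and 3 were higher in the mutants by 0.48 and 0.39 on the log2 scale. With a log2 fold change of 0.24 it had an adjusted p of 0.535 from limma. nr4a1 and nr4a3 had log2 fold changes of 0.18 and −0.05, with 95% intervals from −0.32 to 0.68 and from −0.45 to 0.35.

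The KLF genes of the set encode zinc finger factors, of which klf2a is known in zebrafish for its response to blood flow in endothelium. klf2a, klf2b and klf6a had log2 fold changes of −0.15, 0.11 and 0.03, and the outer bounds of their 95% intervals were −0.71 and 0.42. Of 6 tested endothelial markers 4 were lower in mutants at an unadjusted p under 0.05 from limma, beside 7.9% of all genes, and 0 at an adjusted one. Their summed level was 1565 to 2352 normalized counts in wild type and 1122 to 2022 in mutants, with cldn5b and pecam1 at 0 in every library. The part of endothelial markers in the values of klf2a was not tested.

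The IER genes encode small nuclear proteins that act with other regulators, and btg2 encodes an antiproliferative factor. ier2b had 356.7, 274.4 and 640.3 normalized counts in wild type and 560.1, 382.5 and 761 in mutants. It was higher in the mutant library of all 3 pairs, by 0.65, 0.48 and 0.25 on the log2 scale, yet the genotypes overlapped and the fold change of 0.46 (95% interval −0.06 to 0.98, adjusted p = 0.409 from limma) did not pass. Its paralog ier2a, also higher in all 3 pairs but by no more than 0.25, had a log2 fold change of 0.18 (95% interval −0.31 to 0.66). ier5l had 1052, 1341 and 969.6 normalized counts in wild type and 1003, 1831 and 1112 in mutants. Its highest library was mutant replicate 2 (log2 fold change 0.19, adjusted p = 0.512 from limma). ier5 and btg2 had narrow intervals around log2 fold changes of −0.07 (−0.29 to 0.15) and 0.06 (−0.27 to 0.38).

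The DUSP genes encode phosphatases that inactivate MAP kinases, the feedback arm of the response. dusp5, which acts on nuclear ERK, ranged from 141.2 to 306.2 normalized counts in wild type and from 155.2 to 450.4 in mutants, with a log2 fold change of 0.22 (95% interval −0.17 to 0.61). dusp1 and dusp2 had log2 fold changes of 0.07 and 0.21, with 95% intervals from −0.21 to 0.34 and from −0.55 to 0.97.

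Across pairs of the same replicate number, 20 of 30 members were higher in the mutant in pair 1, 21 in pair 2 and 17 in pair 3, with median log2 differences of 0.221, 0.0952 and 0.186. Over all genes tested these shares were 50.4%, 49.7% and 51.7%. The 7 members higher in mutants in all 3 pairs were egr4, ier2b, junba, fosaa, fosb, ier2a and egr3, beside 21.1% of all genes, and the 1 member lower in all 3 was egr2b, beside 20.6%. The members differed in which mutant pool stood highest. Mutant replicate 1 was the highest of the 6 libraries for 8 members, beside 13% of all genes tested. These were egr4, npas4a, fosab, fosaa, fosb, jund, dusp1 and klf6a. Mutant replicate 3 was highest for 12, beside 21.7% of all genes. These 12 were fosl1a, fosl2, junba, junbb, atf3, dusp2, dusp5, egr2a, egr3, ier2a, ier2b and nr4a3. Wild-type replicate 3 was highest for egr1, nr4a1, btg2 and jun, beside 14.6% of all genes.

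A second comparison set replicate 2 of both genotypes beside replicates 1 and 3. Both replicate 2 libraries were below all of the other 4 for 20 of 30 members, as for 26.1% of all genes tested, and above them for 4 (nr4a2a, ier5l, ier5 and klf2b), as for 24.6%. The median log2 difference of replicate 2 from replicates 1 and 3 was −0.915 over the members and −0.005 over all genes. The term for replicate 2 passed an adjusted p under 0.05 from limma for 19 members in the lower direction (63.3%, beside 17.8% of all genes) and for 2, ier5l and nr4a2a, in the higher one (6.67%, beside 13.7%). With DESeq2 it was 20 lower and 2 higher. The share of all genes was taken from limma only, so these DESeq2 counts stand without a share and were not set against all genes. Replicate 2 was set apart on the values of these same libraries, so the counts are a description, and the sources name no clutch, day or handling that the replicate numbers stand for.

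**Figure D4:**
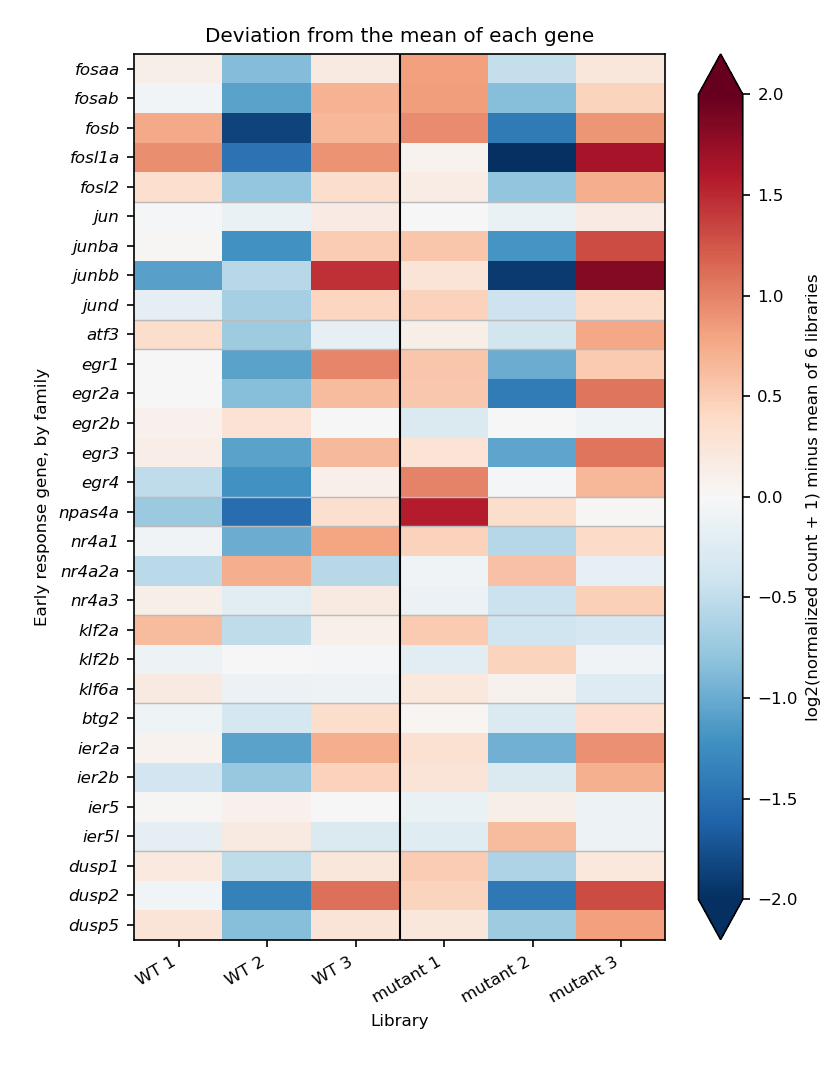
Deviation of each library from the mean of the gene over 6 libraries, on log2 of the normalized count plus 1, for 30 members (rows, by family). Red is above and blue below the mean, values past 2 share the end colours, and the black line parts wild type from mutants. The columns of replicate 2 are blue for most rows in both genotypes, with nr4a2a, ier5l and klf2b among the exceptions.

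All 5 FOS genes were lower in replicate 2, with log2 differences of −2.67 for fosl1a, −2.44 for fosb, −1.45 for fosab, −1.17 for fosl2 and −1.01 for fosaa (adjusted p from 0.000332 to 0.0129, limma). fosl1a had 963.8 and 938.8 normalized counts in wild-type replicates 1 and 3 and 181 in replicate 2, and 529.6 and 1578 against 117.5 in mutants. In both genotypes the replicate 2 library was thus the lowest by a wide margin. Of the EGR genes, egr1, egr2a, egr3 and egr4 were lower, with log2 differences from −0.94 to −1.69, and egr2b was not (log2 difference 0.21, adjusted p = 0.43 from limma). The 3 DUSP genes were lower too, dusp2 with a log2 difference of −2.09, dusp5 with −1.17 and dusp1 with −0.85. Of the JUN genes junba and jund passed, at −1.80 and −0.81, while junbb at −1.85 did not (adjusted p = 0.109 from limma), wild-type replicate 1 being lower than replicate 2. jun, the 3 KLF genes, ier5, nr4a3 and npas4a did not pass limma either. DESeq2 called 1 of these, klf2a, lower (log2 difference −0.71, adjusted p = 0.0417 from DESeq2).

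With either replicate 2 library left out, replicate 2 is a single library whose spread is assumed to be that of the others, and fewer genes of any kind were called. Without wild-type replicate 2 the members called lower were 12 (beside 10.1% of all genes) and ier5l was the 1 called higher (beside 4.66%), and without mutant replicate 2 they were 4, namely egr1, fosb, fosl2 and ier2a (beside 6.73%), with nr4a2a the 1 called higher (beside 2.05%), all from limma. The 19 members called lower with both libraries had a median log2 difference of −1.18 with both, −1.23 without that of wild type and −1.17 without that of mutants. All 19 stayed below 0. Because these 19 were picked for low values in both replicate 2 libraries, this was largely set by the choice and is no separate support. Marker levels also moved with replicate 2, where limma on all libraries called 17.8% of all genes lower and 13.7% higher. The summed level of skeletal muscle markers was 161025 and 109178 normalized counts in wild-type and mutant replicate 2 and 292059 to 351371 in the other 4 libraries, and 8 of its 9 tested genes were called lower there. Epidermal markers summed to 372950 and 435959 in replicate 2 and to 194215 to 332852 in the others, with 3 of 6 genes called higher and 1 lower there. The heat shock list summed to 8035 and 8808 in replicate 2 and to 4264 to 7023 in the others, but its genes went both ways, 4 of 13 called higher and 3 lower. Leukocyte markers summed to 810 and 974 in replicate 2 and to 1080 to 1265 in the others (2 of 7 called higher, 3 lower), and 6 of 7 liver markers were called lower in replicate 2 and 1 higher. Neuronal markers lay between 21754 and 24014 in replicate 2 and between 18944 and 24661 in the others, with 4 of 13 called higher and 1 lower. Endothelial markers summed to 2352 and 2022 in replicate 2 and to 1122 to 1751 in the others, with 3 of 6 called higher and 0 lower. Of 7 glial markers 4 were called higher and 2 lower, and of 7 photoreceptor markers 0 in either direction. The part of tissue composition or handling in the replicate 2 values of the early genes was not tested.

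**Figure D5:**
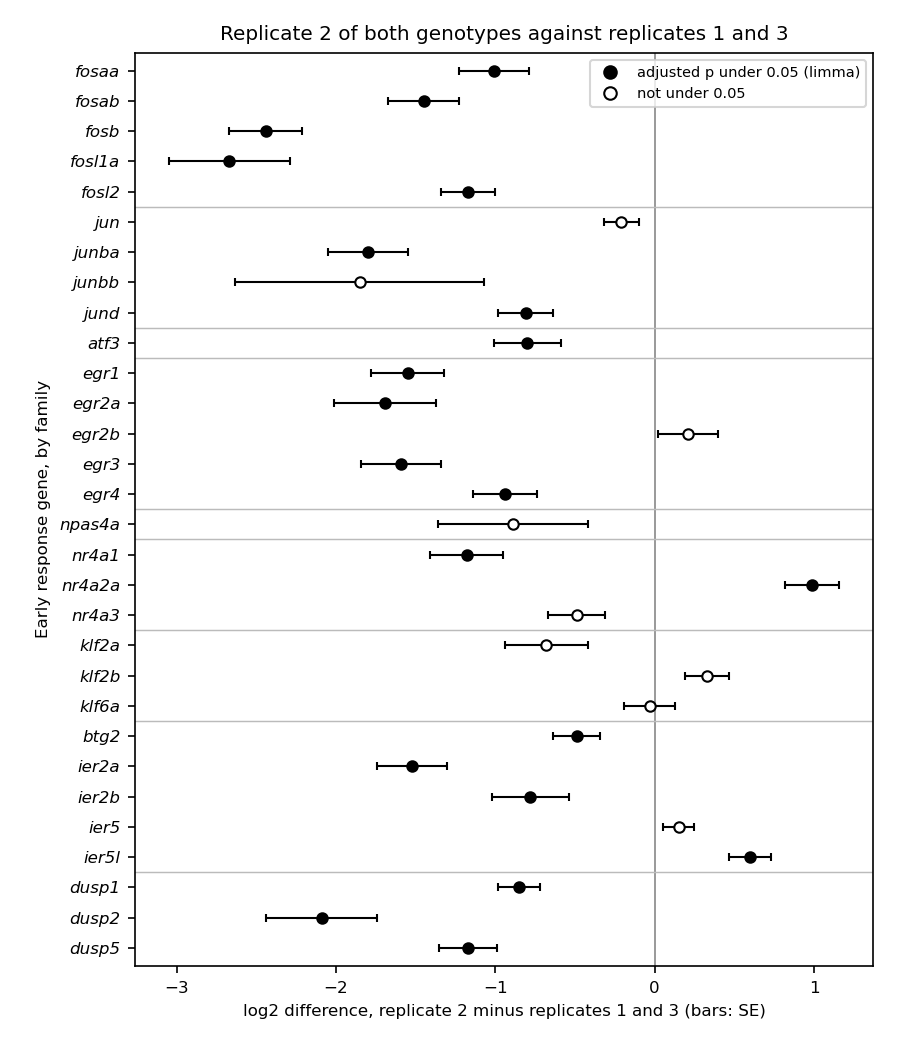
Log2 difference of replicate 2 of both genotypes from replicates 1 and 3 for each member, from limma, with its standard error. Filled points passed an adjusted p under 0.05. All 5 FOS and all 3 DUSP genes lie well below 0, and nr4a2a and ier5l are the filled points above it.

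Other genes of the pathway were followed in 3 lists, in which edgeR called 0 genes in either direction. Without the replicate 2 term, DESeq2 also called 0 of them in either direction. Among 28 tested regulators that act upstream, such as SRF, CREB, MEF2 and the calcium-dependent kinases, the median log2 fold change was −0.09. At an unadjusted p under 0.05 from limma 2 genes were higher and 2 lower, beside 6.1% and 7.9% of all genes tested, and 0 passed at an adjusted one. mef2ca, a MEF2 transcription factor of muscle and neurons, had 508.9, 524.6 and 548.6 normalized counts in wild type and 331.4, 419.5 and 363.6 in mutants, with no overlap. Its log2 fold change was −0.51 (standard error 0.12), with an adjusted p of 0.153 from limma and 0.0208 from DESeq2. The histone acetyltransferase gene ep300a (−0.35) and cremb, a gene of the CREM family (0.55), did not pass either test.

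The second list held other early response and feedback genes, of which 47 were tested. Their median log2 fold change was 0.11. At an unadjusted p under 0.05 from limma 8 were higher and 1 lower, beside 6.1% and 7.9% of all genes tested, and 0 passed at an adjusted one. In replicate 2, limma called 28 of the 47 lower and 1 higher, beside 17.8% and 13.7% of all genes. In the first list it called 6 of 28 lower and 2 higher there. In the third list, described below, it called 12 of 26 lower and 1 higher. socs3a, a feedback inhibitor of cytokine receptors, had 432.8, 170.1 and 526.2 normalized counts in wild type and 835.7, 293.1 and 602.8 in mutants. Its log2 fold change of 0.64 had an adjusted p of 0.168 from limma and 0.0308 from DESeq2. The growth arrest gene gadd45ba differed by 0.50 (0.168 from limma and 0.0393 from DESeq2) and the prostaglandin synthase gene ptgs2b by 0.50 (0.203 from limma and 0.0832 from DESeq2). With the replicate number as a block, DESeq2 called ptgs2b (adjusted p = 0.0226) and no longer called gadd45ba (0.0588). In each of these 3 genes the mutant library was higher in all 3 pairs, and the genotypes overlapped because replicate 2 was low in both. Under the same block limma called 1 list gene, klf9, a glucocorticoid-responsive factor (log2 fold change 0.76, adjusted p = 0.0424). DESeq2 called it too (1.84e-05), and also rgs2, a regulator of G protein signalling (0.78, adjusted p = 0.0314 from DESeq2), both genes being named here after their values were seen. With the replicate 2 term neither passed (klf9 0.258 from limma and 0.1075 from DESeq2, rgs2 0.257 and 0.163). klf9 had 1210, 75.52 and 711.2 normalized counts in wild type and 2107, 125.2 and 1201 in mutants. These calls thus rest on taking the replicate numbers as pairs.

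The third list held genes of the later neuronal wave, of which 26 were tested. They had a median log2 fold change of 0.25. At an unadjusted p under 0.05 from limma 9 were higher and 1 lower, beside 6.1% and 7.9% of all genes tested, and 0 passed at an adjusted one. DESeq2 called 3 higher and 0 lower, beside 1.03% and 2.18% of the genes with a defined adjusted p. bdnf, the brain-derived neurotrophic factor and a target of NPAS4 in mouse neurons, had 257.4, 211.6 and 279.6 normalized counts in wild type and 591.3, 300.1 and 538.8 in mutants. All mutant libraries were above all wild-type libraries. The means were 249.5 ± 34.7 and 476.7 ± 155 (SD, n = 3 pools each). The fitted log2 fold change was 0.88 (95% interval 0.54 to 1.23), with an adjusted p of 0.11 from limma and 0.000221 from DESeq2.

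vgf, which encodes a secreted neuropeptide precursor, had 183.6, 151.6 and 227 normalized counts in wild type and 536.1, 185.2 and 430.6 in mutants, and a log2 fold change of 0.92 with an adjusted p of 0.158 from limma and 0.0106 from DESeq2. The overlap was that of mutant replicate 2 with the wild-type range. nrn1b, of the neuritin family, had 7.553, 7.495 and 11.23 normalized counts in wild type and 39.64, 11.49 and 50.05 in mutants. Its counts were low, and wild-type replicate 3 and mutant replicate 2 lay closer than the value of 1 read (0.591 and 0.639 in these libraries). The log2 fold change was 1.62 (adjusted p = 0.158 from limma). DESeq2 left the adjusted p of nrn1b undefined with the replicate 2 term and gave 0.0465 with the replicate block. The third DESeq2 call was scg2b, a granin gene (0.64, adjusted p = 0.183 from limma and 0.0337 from DESeq2). In the other direction the somatostatin receptor gene sstr2a, with 72.62, 59.38 and 66.8 normalized counts in wild type and 25.99, 30.65 and 45.63 in mutants, had a lower unadjusted p than scg2b and no overlap between genotypes (log2 fold change −0.97, adjusted p = 0.168 from limma and 0.0512 from DESeq2). Both scg2b and sstr2a were named after their values were seen. Beside these genes, 5 of 13 tested neuronal markers were higher in mutants at an unadjusted p under 0.05 from limma, as were 6.1% of all genes. At an adjusted one 0 passed. Of these markers snap25a had the lowest p (log2 fold change 0.39), and the part of neuronal markers in the values of the neuronal genes was not tested.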

How the data were processed

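The deposited table of all genes was analysed for 6 RNA-seq libraries, 3 of each genotype. Genotype and replicate number came from the sample labels, every sample column was mapped (0 unmapped), and p-values measure the spread between pools. The signal values of the table are gene-level read counts, scaled by the authors with a single size factor for each library and deposited in that form. The libraries were polyA-selected and strand-specific, and the submitters' processing notes list GRCz11 as the build and HTSeq, HISAT2 and TopHat2 as tools. Their roles, versions and strand setting were not given in the sources used here. Comparison columns in the deposited table (fold changes, their errors, test statistics and p-values from DESeq2) and 3 shorter tables with a selection of its rows were not used.

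Reads were recovered from the steps between low values of a library. They came out whole for 100% of values within 0.001 reads, and totalled 18725190 to 23516860 per library. Because the deposited values are scaled, the main test was limma (version 3.58.1, R 4.3.3) on log2(value + 1) with its option for a mean-variance trend, over genes with a mean of at least 5, with terms for genotype and for replicate 2 of both genotypes. This scale understates the change of low genes. There were 3 residual degrees of freedom per gene and, as a median, 4.65 prior ones, and p-values were adjusted by Benjamini-Hochberg over all 21302 genes tested. The replicate 2 term follows an earlier analysis of these data and is not named in the study's methods. Recovered reads were also tested with edgeR (version 4.0.16, quasi-likelihood) and DESeq2 (version 1.42.0, likelihood ratio test, as in the study's methods), where an adjusted p was defined for 18397 of 25941 genes and was otherwise left undefined. With 3 pools per genotype an exact two-sided permutation test of 1 gene cannot go below p = 0.1, so none was run.

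Deviations from the genotype means correlated between libraries of the same number with r = 0.651, 0.856 and 0.699 for replicates 1, 2 and 3 (across genes, which are not independent). Deviations within a genotype sum to 0, so with replicate 2 far apart, replicates 1 and 3 tend to deviate alike whatever the pairing. Unlike numbers correlated too, wild-type replicate 3 with mutant replicate 1 (r = 0.5) and wild-type replicate 1 with mutant replicate 3 (r = 0.346). The correlations therefore cannot decide how replicates 1 and 3 pair. The numbers, given in the sample titles, were taken as pairs. The limma, edgeR and DESeq2 fits with the replicate 2 term were tested on simulated counts, which had the same dispersion for every gene. The other fits were not simulated. The members and the lists were chosen with earlier results of these data known. Full values are given for the 12 members with the lowest genotype p in limma, which include npas4a and fosab, and for egr1, with fosl1a added after its values were seen, and up to 3 genes are named from each pathway list by the same p. Alternatives were other tests, no replicate 2 term, a replicate block, other pseudocounts, filters and scaling, and leaving out libraries. Python 3.11.15 with pandas 2.3.3, numpy 2.4.6 and matplotlib 3.10.9 was used for the other steps.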

Additional observations from a re-analysis of the deposited data

How the results depend on the processing

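No member passed limma under any alternative that kept limma as the test, and the fold changes of egr4 and npas4a stayed above 0 under all 18 alternatives (0.91 to 1.26 and 0.94 to 1.82). Among members, DESeq2 called 1 higher with the replicate 2 term, 1 with the replicate block and 0 with no such term. Among list genes it called 5 higher and 1 lower with the term and 8 and 1 with the block. With no such term it called 0 list genes in either direction. For DESeq2 the share of all genes called was taken only with the replicate 2 term and all libraries. The counts of its other fits, here and below, therefore stand without a share and were not set against all genes. Limma with the replicate block called 1 list gene, klf9, and the pairing changed no other call of a member or list gene by limma. The limma count of members lower in replicate 2 ran from 4 to 20 and of those higher from 1 to 2 when libraries were left out in turn. With libraries left out after seeing the data, DESeq2 called 0 members higher in mutants without wild-type or mutant replicate 2, and 1 without both. Those fits compare the genotypes in the same 4 libraries. It called 2 higher, egr4 and npas4a, without wild-type or without mutant replicate 3. The count of members lower ran from 0 to 1 (fosl1a, without mutant replicate 3).

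Fold changes near 0 changed sign, as follows. With no replicate 2 term DESeq2 gave 0.07 for fosl1a and −0.02 for egr1. For junbb edgeR gave −0.03 and DESeq2 −0.07. Without both replicate 2 libraries klf2b and klf6a were at −0.07 and nr4a3 at 0.02. With libraries left out in turn, genotype fold changes ran from −0.02 to 0.36 for ier2a, −0.06 to 0.40 for egr3, −0.03 to 0.46 for nr4a1, −0.07 to 0.20 for klf2b, −0.75 to 0.15 for fosl1a, −0.16 to 0.50 for dusp2, −0.36 to 0.13 for klf2a, −0.05 to 0.15 for dusp1, −0.13 to 0.49 for egr2a, −0.07 to 0.18 for btg2, −0.12 to 0.21 for fosl2, −0.24 to 0.10 for nr4a3, −0.21 to 0.34 for egr1, −0.08 to 0.19 for klf6a, −0.83 to 0.86 for junbb and −0.05 to 0.07 for jun. The replicate 2 difference of klf6a ran from −0.17 to 0.11. The cause of these shifts was not tested. With 3 pools per genotype the median standard error of a member was 0.202 on the log2 scale and egr4, at a change of over 2-fold with a standard error of 0.19, did not pass limma, so a member that did not pass may still differ between genotypes.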
